A study of Mus musculus with 5 samples.

Results

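The cadherins and protocadherins are cell-surface proteins with repeated extracellular cadherin domains. The genes described here are every row of the deposited count table that was typed as protein-coding and had a symbol starting with Cdh and a digit, or with Pcdh. There were 92 such genes among the 55573 rows of the table, of which 23 were cadherins, 12 were non-clustered protocadherins and 57 were clustered protocadherins. RNA was sequenced from mouse Neuro-2A (N2A) cells, a neuroblastoma line, which had been transfected with 60 pmol of siRNA. The siCtl group (replicates 1 and 3, n = 2) received Silencer Negative Control #1, a commercial control siRNA, and the siUpf1 group (replicates 1, 2 and 3, n = 3) received an siRNA against Upf1, and every library came from the same ATCC line (CCL-131). The study used this comparison to look for transcripts that depend on UPF1, the RNA helicase at the centre of nonsense-mediated mRNA decay (NMD). To call a transcript an NMD target, the study also required its enrichment in RNA immunoprecipitated with phosphorylated UPF1. The siRNA as labelled is shown because its seed can also pair with mRNAs other than Upf1, and the capitals mark the bases that the seed of its antisense strand pairs with:

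Upf1 siRNA, sense strand: ucaagguuccuGAUAAUUa

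Classical cadherins form adherens junctions by binding the same cadherin on a neighbouring cell, and their cytoplasmic tails bind catenins, which link them to actin. Type I and type II classical cadherins differ in the surface that makes this contact. Non-clustered protocadherins are weaker adhesion molecules that signal to the actin cytoskeleton in the developing nervous system. Clustered protocadherins come from the Pcdha, Pcdhb and Pcdhg gene clusters, where each variable exon has its own promoter, and neurons express individual sets of them that serve self-recognition. CTCF and cohesin loop a distal enhancer to the chosen promoters, and DNA methylation keeps others silent. In the Pcdha and Pcdhg clusters each variable exon is spliced to the same constant exons, whereas a Pcdhb gene is a single exon.

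Upf1 itself checked the labels. Its normalised read count (raw count divided by the DESeq2 size factor of the library) was 5217 and 5243 in siCtl replicates 1 and 3, and 2403, 2496 and 2449 in siUpf1 replicates 1, 2 and 3. The siUpf1 mean was 46.8% of the siCtl mean (log2 fold change −1.10 ± 0.05 SE, DESeq2 Wald test with Benjamini-Hochberg adjustment over all genes, adjusted p = 7.09e-101), with no overlap between groups. Libraries held 20402205 to 27717594 assigned reads. Of 12 markers of sympathetic neuroblastoma, 11 averaged 50 or more normalised counts. The summed count of these 12 markers was 42740 to 42863 in siCtl and 46992 to 49762 in siUpf1 libraries. The 4 epithelial markers summed to at most 4.46 and the 3 leukocyte markers to 30.3 to 38.7. The 4 endothelial markers summed to 202 to 214 in siCtl and 116 to 127 in siUpf1, nearly all of it Pecam1, and the 5 fibroblast markers summed to 288 to 306 and 223 to 258. The 4 glial markers summed to 515 to 535 and 541 to 581. The part of these marker shifts in the results below was not tested.

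Of the 92 genes, 10 had no read in any library and 54 had enough reads to be tested. The filter was DESeq2's, on the mean over all 5 libraries, so the tested members averaged 11.3 or more normalised counts and the 38 others reached at most 17 raw counts in any library. A gene is called here at an adjusted p under 0.05. Across all 15191 genes tested, 44.9% were called, 22.0% higher and 22.9% lower in siUpf1 than in siCtl, and the median log2 fold change was −0.00. Among the 54 tested members, 23 rose, 1 fell and 30 were not called, and their median log2 fold change was 0.68. Cdh2 was the member that fell. The rises were in 18 clustered protocadherins, 3 non-clustered protocadherins and 2 cadherins. Of the 54, 6 had a siCtl mean under 11.3, the lowest overall mean of a tested member, and exceeded or reached it only through their siUpf1 libraries, and 3 of these are among the rises, namely Pcdhga6, Pcdhga7 and the Pcdha11 identifier ENSMUSG00000102206.5. Without these 6, 20 of 48 tested members rose, with a median log2 fold change of 0.65. In a bulk RNA sample, less RNA per cell and fewer cells that express a gene cannot be told apart. The labels do not say whether replicates were separate cultures, so the p-values measure the spread between these libraries.

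**Figure D1:**
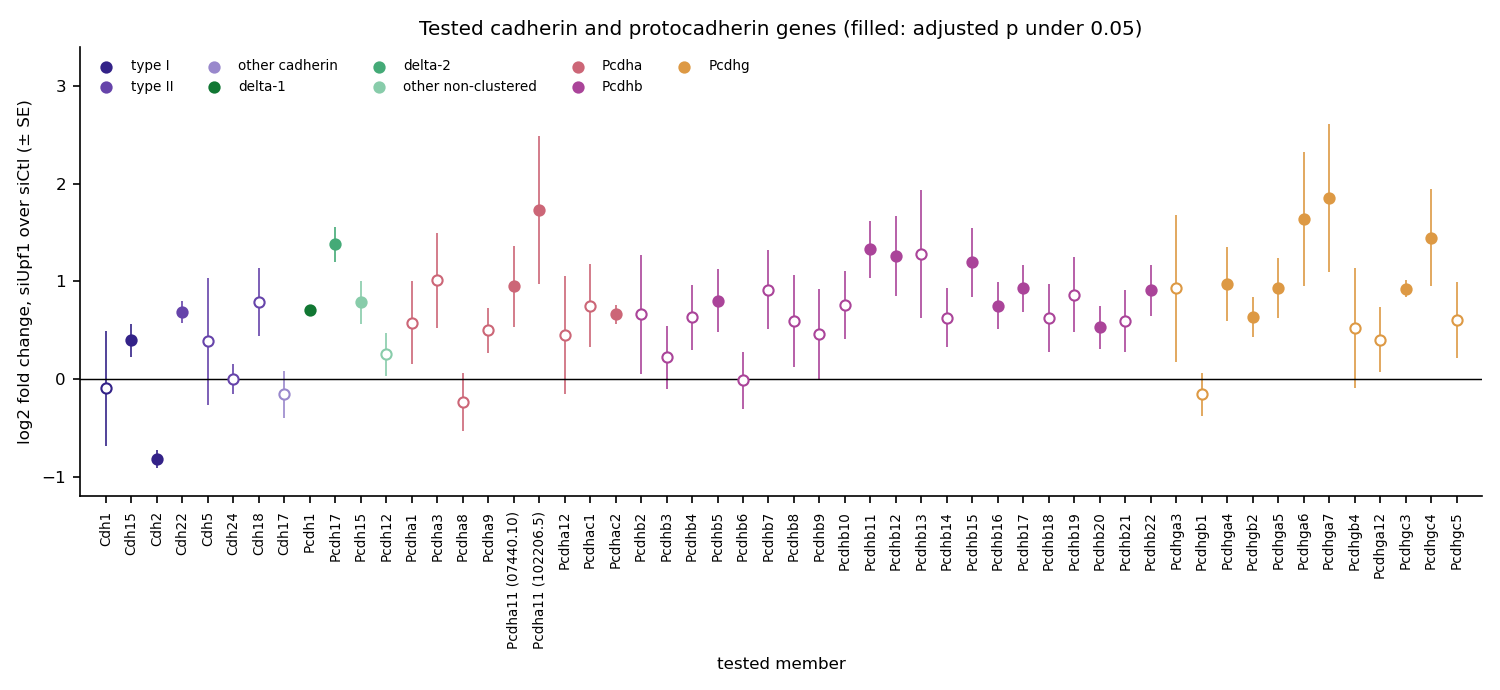
Log2 fold change of siUpf1 over siCtl with its SE for the 54 tested members, coloured by family, with filled points for adjusted p under 0.05 (DESeq2). Cdh2 is the single filled point under 0, at −0.82, and 39 of the 42 clustered protocadherins lie above 0.

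The cadherins moved in both directions. Of 23 genes, 5 had no read and 8 were tested, of which 2 rose and 1 fell, and their median log2 fold change was 0.19. The 2 rises are 25.0% of the 8 tested, beside 22.0% of all genes tested. The member with the most reads among them, Cdh2, encodes N-cadherin, the classical cadherin of neural tissue, and lies on chromosome 18 (16588877 to 16809246, minus strand, GRCm38). Its normalised read count was 1049 and 1078 in siCtl, and 616, 574 and 616 in siUpf1 libraries. Every siUpf1 library was well below both siCtl libraries, and Cdh2 fell by 0.82 on the log2 scale (SE 0.09, adjusted p = 7.60e-19 by DESeq2).

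Cdh22, a type II classical cadherin of the brain, went the other way. It gave 357 and 393 normalised counts in siCtl, and 584, 630 and 605 in siUpf1 libraries. The groups were far apart relative to their spread, and Cdh22 rose with a log2 fold change of 0.69 (SE 0.11, adjusted p = 4.63e-09 by DESeq2). Counts per kb of exon sequence that belongs to one gene alone allow a rough comparison of levels between genes. This length takes in the exons of every annotated transcript, whether expressed or not. On this scale Cdh2 had 132 ± 2.55 (SD, n = 2) in siCtl and 74.6 ± 3.05 (SD, n = 3) in siUpf1, whereas Cdh22 had 101 ± 6.87 and 164 ± 6.18. On this scale the order of these cadherins was opposite in the 2 groups. Their mean normalised counts in siUpf1 were nearly equal, at 602 for Cdh2 and 607 for Cdh22. The order in siUpf1 thus rests on the exon lengths, 8066 bases for Cdh2 and 3702 for Cdh22.

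Cdh15, the type I cadherin of muscle known as M-cadherin, had 191 and 166 normalised counts in siCtl, and 237, 245 and 222 in siUpf1 libraries. The groups did not overlap and the log2 fold change was 0.40 (SE 0.17, adjusted p = 0.0398 by DESeq2). This call was lost when any one of the 5 libraries was left out, with adjusted p between 0.0826 (without siUpf1 replicate 3) and 0.345 (without siCtl replicate 3), and over all alternatives the adjusted p ran from 0.00498 to 0.345. Cdh24, a type II cadherin, had 266 and 238 normalised counts in siCtl, and 252, 265 and 241 in siUpf1 libraries. The groups overlapped (log2 fold change 0.00, SE 0.15, adjusted p = 0.997 by DESeq2), and the sign of this value depended on the settings.

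The remaining tested cadherins had few reads. Cdh18, a type II cadherin of neurons, had 31.4 and 33.0 normalised counts in siCtl, and 60.5, 50.2 and 56.2 in siUpf1 libraries. Its groups did not overlap, but its adjusted p was 0.0531 in DESeq2's test (log2 fold change 0.79 ± 0.35, SE). Cdh1, which encodes the epithelial E-cadherin, had between 11.3 and 22.2 normalised counts, Cdh5, which encodes the endothelial VE-cadherin, between 9.43 and 17.8, and Cdh17, an intestinal cadherin, between 80.3 and 122.6. In all 3 of these the groups overlapped. Cdh6, another type II cadherin, was not tested. It gave 0 and 1 raw reads in siCtl, and 17, 2 and 7 in siUpf1 libraries, so most of its reads came from siUpf1 replicate 1. The other 14 cadherins that were not tested reached at most 7 reads in a library.

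Of the 12 non-clustered protocadherins, 5 had no read in any library and 4 were tested, of which 3 rose (75.0%, beside 22.0% of all genes tested) and none fell (beside 22.9%). No member was lower at an unadjusted p under 0.05 either, and edgeR also called none lower. Pcdh1, a delta-1 protocadherin of epithelia and brain, was by level per kb the highest of all 92 members. It lies on chromosome 18 (38185914 to 38212053, minus strand), 3′ of the Pcdhg cluster. Pcdh1 had 5306 and 4932 normalised counts in siCtl, and 8019, 8725 and 8297 in siUpf1 libraries. The groups were widely separated, and Pcdh1 rose by a log2 fold change of 0.71 (SE 0.05, adjusted p = 3.50e-41 by DESeq2). Its level per kb was 582 ± 30.1 (SD, n = 2) in siCtl and 949 ± 40.5 (SD, n = 3) in siUpf1 libraries.

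Pcdh17, a delta-2 protocadherin of axons and synapses, had the largest log2 fold change of the tested members outside the clusters. It had 101 and 102 normalised counts in siCtl, and 277, 246 and 267 in siUpf1 libraries. All 3 siUpf1 libraries were far above both controls, and the log2 fold change was 1.38 (SE 0.18, adjusted p = 1.83e-13 by DESeq2). Pcdh15, which encodes a tip-link protein of hair cells in the inner ear, had 89.1 and 79.2 normalised counts in siCtl, and 139.6, 142 and 153 in siUpf1 libraries. The groups did not overlap, and the log2 fold change was 0.79 (SE 0.22, adjusted p = 0.00114 by DESeq2). Without siCtl replicate 3, which leaves 1 control, the log2 fold change of Pcdh15 was 0.70 and the call was lost. Over all alternatives its adjusted p ran from 0.000159 (edgeR) to 0.0718 (DESeq2 with the replicate block). Pcdh12, a protocadherin of endothelium and trophoblast, had 127 and 94.3 normalised counts in siCtl, and 142, 127 and 125 in siUpf1 libraries. These groups overlapped (log2 fold change 0.25, SE 0.22, adjusted p = 0.379 by DESeq2). The other 8 non-clustered genes were not tested and had at most 3 reads in a library.

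**Figure D2:**
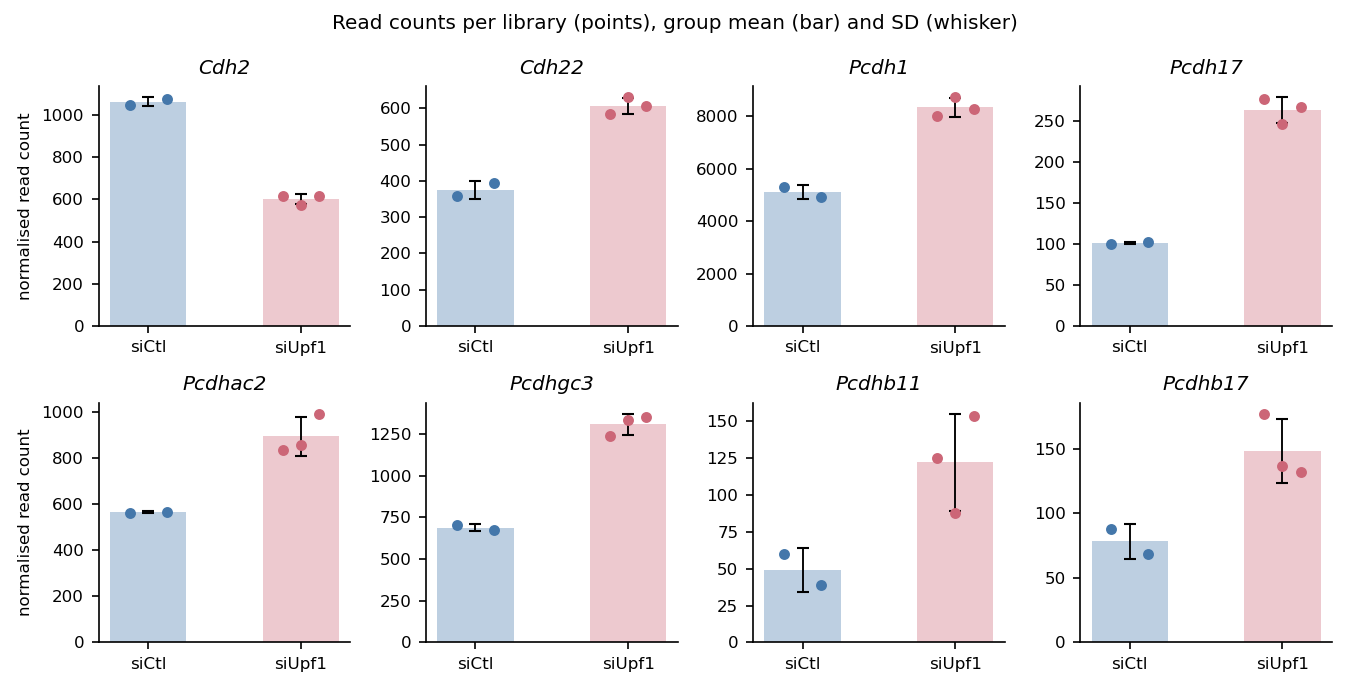
Normalised read counts of 8 members in each library (points), with the group mean (bar) and SD (whisker), for siCtl (n = 2) and siUpf1 (n = 3). Cdh2 is lower in all siUpf1 libraries, and the other 7 genes are higher in all of them.

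Pcdh17, Pcdh15 and Cdh22 were the 3 called members with the largest rises outside the chromosome that carries the clusters, so the sequence around their starts is shown from RefSeq (GRCm38.p6, 250 bases before to 50 bases after the start). The Pcdh17 window is chr14:84443313-84443612 on the plus strand, the Pcdh15 window chr10:73821617-73821916 on the plus strand and the Cdh22 window chr2:165234688-165234987 on the minus strand. The start that RefSeq gives for Pcdh15 lies inside the longer GENCODE gene. All 3 are printed 5′ to 3′, with capitals for matches to CCAAT or GGGCGG on either strand (ATTGG and CCGCCC on the other strand):

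Pcdh17 promoter: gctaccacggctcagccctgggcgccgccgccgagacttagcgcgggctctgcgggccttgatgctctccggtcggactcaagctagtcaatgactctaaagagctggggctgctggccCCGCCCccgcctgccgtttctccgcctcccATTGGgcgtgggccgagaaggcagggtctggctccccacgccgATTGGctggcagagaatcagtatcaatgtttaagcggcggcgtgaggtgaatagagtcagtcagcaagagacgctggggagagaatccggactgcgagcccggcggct
Pcdh15 promoter: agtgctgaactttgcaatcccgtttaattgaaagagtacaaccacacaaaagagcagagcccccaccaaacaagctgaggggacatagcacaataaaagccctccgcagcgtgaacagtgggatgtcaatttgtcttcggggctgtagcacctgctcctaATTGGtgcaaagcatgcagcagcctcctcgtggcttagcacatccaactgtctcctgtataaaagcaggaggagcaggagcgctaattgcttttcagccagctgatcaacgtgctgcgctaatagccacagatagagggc
Cdh22 promoter: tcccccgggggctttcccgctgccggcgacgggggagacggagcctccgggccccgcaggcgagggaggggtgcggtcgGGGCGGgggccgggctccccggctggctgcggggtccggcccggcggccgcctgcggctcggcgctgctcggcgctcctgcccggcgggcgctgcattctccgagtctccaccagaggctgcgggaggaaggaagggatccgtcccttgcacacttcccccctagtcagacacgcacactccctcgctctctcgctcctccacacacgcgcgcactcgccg

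The Pcdh17 window held 2 CCAAT-type matches and 1 GGGCGG-type match, the Pcdh15 window held 1 CCAAT-type match and no GGGCGG, and the Cdh22 window held 1 GGGCGG-type match and no CCAAT. Of the 27025 RefSeq promoter windows of the same length, 37.9% held CCAAT and 35.9% held GGGCGG on at least 1 strand. The Pcdh15 window held 1 match each to TATAAA, found in 14.2% of all windows, and to CACCTG, the E-box read by SNAIL and ZEB repressors, found in 20.03%, and the other two windows held neither. The share of G and C was 65.0% for Pcdh17, 50.7% for Pcdh15 and 76.3% for Cdh22, and the median over all windows was 52.7%. The windows held 26, 8 and 38 CpG dinucleotides, and the median window held 7. These matches describe the letters alone.

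The clustered protocadherins lie on chromosome 18 of GRCm38, with Pcdha at 36930184 to 37187661, Pcdhb at 37264938 to 37524479 and Pcdhg at 37661793 to 37841873. All 57 genes had a read in at least 1 library. In 52 of the 57 the siUpf1 mean was above the siCtl mean, that is in 12 of 14 Pcdha, 20 of 22 Pcdhb and 20 of 21 Pcdhg genes. Of the 42 tested, 18 rose (42.9%, beside 22.0% of all genes tested) and 24 were not called. None fell in DESeq2's test, none was lower at an unadjusted p under 0.05, and edgeR also called none lower. The median log2 fold change was 0.75. Without the 5 genes that passed the filter only through siUpf1, 15 of 37 rose (40.5%) and the median was 0.66. In 35 of the 42 the siCtl and siUpf1 libraries did not overlap (83.3%, beside 69.4% of all genes tested). The number of called genes varied with the test and the libraries. The median stayed between 0.68 and 0.79 in every alternative other than the shrunken fold changes, for which it was not computed. EdgeR's quasi-likelihood test called 31 clustered genes higher. DESeq2 called 7 without siCtl replicate 1, 5 without siCtl replicate 3, 9 without siUpf1 replicate 1, 14 without siUpf1 replicate 2 and 9 without siUpf1 replicate 3, with 34 to 40 of these genes tested in place of 42.

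Many of these genes had low counts. Of the tested clustered genes, 32 had a mean between 20 and 200 normalised counts, and 13 of these rose (40.6%). Among all tested protein-coding genes in that range of counts, 12.9% rose and 15.8% fell.

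The summed counts of each cluster showed the same direction in all 3 clusters. The Pcdha genes summed to 844 and 815 normalised counts in siCtl, and to 1214, 1205 and 1412 in siUpf1 libraries. The Pcdhb genes summed to 924 and 884 in siCtl, and to 1647, 1339 and 1515 in siUpf1 libraries. The Pcdhg genes summed to 1221 and 1149 in siCtl, and to 1914, 2014 and 2178 in siUpf1 libraries. No siUpf1 sum overlapped the siCtl sums of its cluster. The siUpf1 mean was 1.54 times the siCtl mean for Pcdha, 1.66 times for Pcdhb and 1.72 times for Pcdhg. These sums are descriptions and were not tested.

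**Figure D3:**
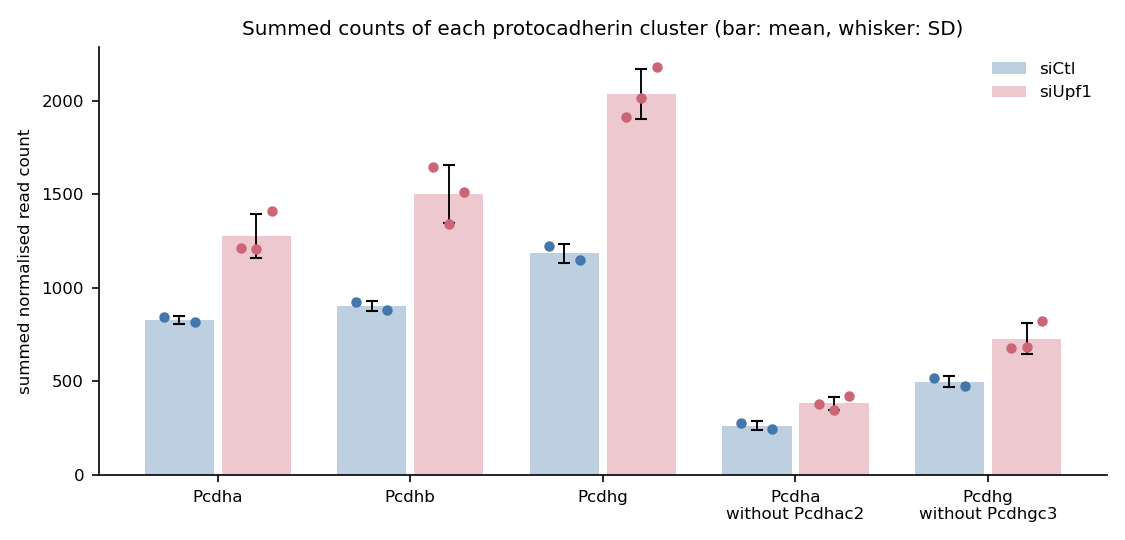
Summed normalised read counts of the Pcdha, Pcdhb and Pcdhg genes in each library (points), with the group mean (bar) and SD (whisker), and the same for Pcdha without Pcdhac2 and Pcdhg without Pcdhgc3. The siUpf1 mean is 1.45 times the siCtl mean for Pcdha without Pcdhac2 and 1.46 times for Pcdhg without Pcdhgc3.

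The Pcdha and Pcdhg clusters were each dominated by 1 C-type gene. C-type genes sit at the 3′ end of these clusters, and unlike the other isoforms they are chosen without the stochastic promoter choice. Pcdhac2 took 66.8% and 69.7% of the Pcdha sum in siCtl, and 68.8%, 71.1% and 70.3% in siUpf1 libraries, so its share overlapped between the groups. Pcdhgc3 took 57.5% and 58.5% of the Pcdhg sum in siCtl, and 64.6%, 66.1% and 62.2% in siUpf1 libraries, without overlap. No Pcdhb gene held a comparable share. Pcdhb17 had the highest Pcdhb mean over the 5 libraries, at 7.79% to 10.7% of the sum, although Pcdhb20 was above it in both siCtl libraries and Pcdhb11 and Pcdhb20 in siUpf1 replicate 3.

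Pcdhac2 had 564 and 568 normalised counts in siCtl, and 835, 857 and 992 in siUpf1 libraries. All siUpf1 libraries lay above the controls, with a log2 fold change of 0.66 (SE 0.10, adjusted p = 4.84e-10 by DESeq2). Pcdhgc3, an isoform known to promote dendrite arborisation in cortical neurons, had 702 and 673 normalised counts in siCtl, and 1236, 1332 and 1354 in siUpf1 libraries. The groups were widely separated, and the log2 fold change was 0.93 (SE 0.08, adjusted p = 5.67e-27 by DESeq2). After Pcdh1, these were the members with the highest level per kb, with Pcdhgc3 at 203 ± 6.20 (SD, n = 2) in siCtl and 387 ± 18.5 (SD, n = 3) in siUpf1, and Pcdhac2 at 187 ± 0.93 and 296 ± 28.1. Pcdhgc4, an isoform known to sustain the survival of interneurons, had 13.6 and 12.3 normalised counts in siCtl, and 25.8, 40.2 and 40.1 in siUpf1 libraries. It rose by a log2 fold change of 1.45 (SE 0.50, adjusted p = 0.00998 by DESeq2). Its call was lost without either siCtl library or siUpf1 replicate 2 or 3, with a highest adjusted p over the alternatives of 0.112 in DESeq2. The other C-type genes, Pcdhac1 and Pcdhgc5, had log2 fold changes of 0.75 and 0.60 and were not called.

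Of the 21 Pcdhb genes tested, 8 rose (38.1%, beside 22.0% of all genes tested). Pcdhb11 had 59.7 and 38.7 normalised counts in siCtl, and 125, 87.9 and 153 in siUpf1 libraries. It kept its groups apart although both varied, and its log2 fold change of 1.33 (SE 0.30, adjusted p = 3.16e-05 by DESeq2) was the largest of the called Pcdhb genes. Pcdhb17 had 88.1 and 68.9 normalised counts in siCtl, and 177, 137 and 132 in siUpf1 libraries. Its groups did not overlap, and the log2 fold change was 0.93 (SE 0.24, adjusted p = 0.000327 by DESeq2). Without siCtl replicate 3 the adjusted p of Pcdhb17 was 0.0534.

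Pcdhb22, the last gene of the cluster, had 51.4 and 74.5 normalised counts in siCtl, and 135, 115.5 and 105 in siUpf1 libraries (log2 fold change 0.91, SE 0.26, adjusted p = 0.00159 by DESeq2). Pcdhb15 had 36.7 and 22.6 in siCtl, and 66.7, 56.5 and 78.4 in siUpf1 libraries (log2 fold change 1.19, SE 0.36, adjusted p = 0.00245 by DESeq2). Pcdhb16 had 74.4 and 69.8 in siCtl, and 135, 112 and 116 in siUpf1 libraries (log2 fold change 0.75, SE 0.24, adjusted p = 0.00534 by DESeq2). In these 3 genes every siUpf1 library was above both siCtl libraries. Pcdhb5 had 52.4 and 34.0 in siCtl, and 87.2, 62.8 and 74.0 in siUpf1 libraries, also without overlap (log2 fold change 0.80, SE 0.32, adjusted p = 0.0300 by DESeq2). DESeq2 fits that left out a library called fewer genes in general, for example 2802 to 2944 higher without a siUpf1 library in place of 3341. Each of the calls of Pcdhb22, Pcdhb15, Pcdhb16 and Pcdhb5 was lost in at least 1 such fit. That of Pcdhb22 was lost without siCtl replicate 1, that of Pcdhb15 without siCtl replicate 3, that of Pcdhb16 without either siCtl library or siUpf1 replicate 1, and that of Pcdhb5 without siCtl replicate 3 or siUpf1 replicate 1 or 3. Their highest DESeq2 adjusted p over the alternatives was 0.114, 0.138, 0.101 and 0.373. Pcdhb12 and Pcdhb20 also rose, with log2 fold changes of 1.26 and 0.53. The call of Pcdhb12 was lost without siCtl replicate 1 (adjusted p = 0.140 by DESeq2) or siUpf1 replicate 1 (0.112), and that of Pcdhb20 without any one library (0.0748 to 0.231). Of the 13 Pcdhb genes that were tested and not called, all but Pcdhb6 had a log2 fold change above 0. Pcdhb6 gave 67.1 and 66.0 normalised counts in siCtl, and 68.5, 55.2 and 73.1 in siUpf1 libraries, so its groups overlapped.

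Of the 12 Pcdhg genes tested, 7 rose (58.3%, beside 22.0% of all genes tested). Among the Pcdhg genes outside the C type, 9 were tested and 5 of them rose. Pcdhgb2 had 130 and 116 normalised counts in siCtl, and 170, 172 and 231 in siUpf1 libraries (log2 fold change 0.64, SE 0.20, adjusted p = 0.00507 by DESeq2). Pcdhga5 had 43.0 and 46.2 in siCtl, and 102, 67.8 and 83.8 in siUpf1 libraries (log2 fold change 0.93, SE 0.30, adjusted p = 0.00618 by DESeq2). Both kept the groups apart. The call of Pcdhgb2 was lost without siCtl replicate 3 or siUpf1 replicate 3, and that of Pcdhga5 without either siCtl library or siUpf1 replicate 1, with a highest DESeq2 adjusted p over the alternatives of 0.121 and 0.0897. Pcdhga4, Pcdhga6 and Pcdhga7 also rose, with log2 fold changes of 0.97, 1.64 and 1.86, and the last of these rests on 4.72 to 5.24 normalised counts in siCtl and 8.79 to 23.1 in siUpf1 libraries. Pcdhga6 and Pcdhga7 passed the filter only through siUpf1, were tested in just 1 of the 5 fits that left out a library, and had adjusted p of 0.0715 and 0.0620 in DESeq2 without independent filtering. The call of Pcdhga4 was lost without either siCtl library or siUpf1 replicate 1 or 3, with a DESeq2 adjusted p of up to 0.1996. Pcdhgb1 was an exception among the better expressed isoforms. It had 154 and 146 normalised counts in siCtl, and 102, 151 and 152 in siUpf1 libraries, so the groups overlapped and siUpf1 replicate 1 stood below the rest. Its DESeq2 adjusted p was 0.600. Pcdhgb8, which the table types as a polymorphic pseudogene and which therefore is not counted here, had a log2 fold change of 0.48 (adjusted p = 0.0334 by DESeq2).

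Of the 9 Pcdha genes tested, 3 rose (33.3%, beside 22.0% of all genes tested). Outside the C type, 7 were tested and 2 of them were called, both under the symbol Pcdha11. The table gives this symbol to 2 identifiers. ENSMUSG00000007440.10 lies where RefSeq places Pcdha10 (start at 37005320 on chromosome 18) and had 21.0 and 25.5 normalised counts in siCtl, and 42.7, 35.1 and 56.2 in siUpf1 libraries (log2 fold change 0.95, SE 0.41, adjusted p = 0.0480 by DESeq2). ENSMUSG00000102206.5 lies where RefSeq places Pcdha11 (start at 37010858) and had 3.14 and 6.60 in siCtl, and 14.2, 15.1 and 19.6 in siUpf1 libraries (log2 fold change 1.73, SE 0.75, adjusted p = 0.0489 by DESeq2). The first call was lost when any one library was left out, with DESeq2 adjusted p from 0.0544 to 0.273. The second gene passed the filter only through siUpf1 and was not tested when any one library was left out, and without independent filtering its DESeq2 adjusted p was 0.0899. Pcdha9 had 97.5 and 78.3 normalised counts in siCtl, and 116, 122 and 135 in siUpf1 libraries, without overlap but with an adjusted p of 0.0655 in DESeq2's test. Pcdha8 was the reverse, with 63.9 and 67.0 in siCtl, and 49.8, 59.0 and 58.8 in siUpf1 libraries (adjusted p = 0.571 by DESeq2). The Pcdha genes from Pcdha4 to Pcdha7 had at most 7 reads in a library.

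**Figure D4:**
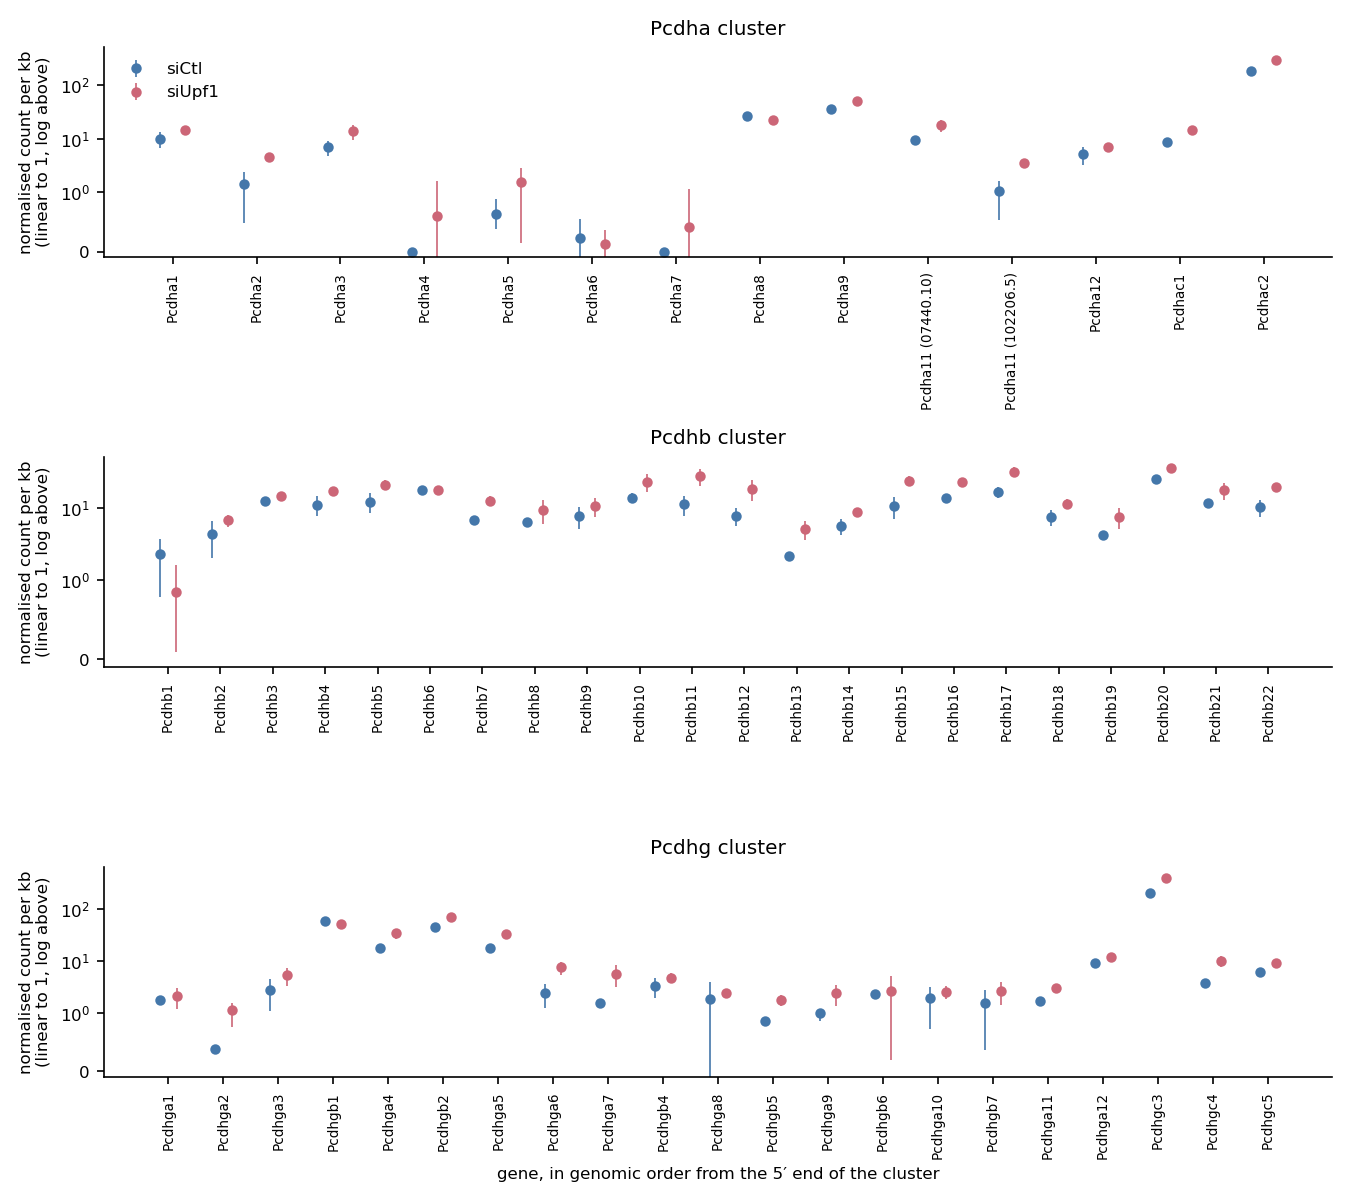
Mean normalised count per kb of exon sequence belonging to that gene alone (SD whiskers) in siCtl (n = 2) and siUpf1 (n = 3), with genes in genomic order in each cluster, on an axis that is linear up to 1 and logarithmic above. The siUpf1 mean lies above the siCtl mean in 52 of the 57 genes, and Pcdhac2 and Pcdhgc3 stand highest.

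In Pcdhb, Pcdhb5 was the only called gene 5′ of Pcdhb11, and the others lay from Pcdhb11 to Pcdhb22. In Pcdhg, called genes lay from Pcdhga4 to Pcdhga7 and at Pcdhgc3 and Pcdhgc4, and most genes between these were not tested. In Pcdha, the called genes all lay 3′ of Pcdha9. An effect of position was not tested. Near-identical sequence limits single values within the clusters. Exons that overlap more than 1 gene include the constant exons, and the share of exon length that belonged to a gene alone was 8.56% to 61.1% in Pcdha, 33.2% to 68.5% in Pcdhg and 90.3% to 100% in Pcdhb genes. Reads in the shared exons name no single gene, and the variable exons of neighbouring isoforms are alike, so assignment between isoforms is uncertain.

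Genes next to the clusters moved in both directions. Within 1000000 bases of the outer ends of the clusters, 32 other protein-coding genes were tested, of which 11 rose and 6 fell, with a median log2 fold change of 0.02. Among all 287 tested non-member protein-coding genes of chromosome 18, 75 rose and 80 fell. The nearest tested neighbours, chosen by position after the values were seen, were Zmat2 before Pcdha, Taf7 between Pcdhb and Pcdhg, and Diaph1 after Pcdhg. Zmat2, a zinc finger splicing factor, had a log2 fold change of 0.01 and was not called. Taf7, a subunit of the general transcription factor TFIID, fell by 0.93 on the log2 scale (SE 0.09, adjusted p = 3.06e-24 by DESeq2). Diaph1, an actin-nucleating formin, had a log2 fold change of −0.13 (adjusted p = 0.0828 by DESeq2).

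Features that can make an mRNA a target of NMD or of the siRNA seed were counted in the annotation. The median 3′ UTR was 1744 nt in tested members and 984 nt in all tested protein-coding genes. It was 2401 nt in every Pcdha gene, 1741 to 1744 nt in Pcdhg genes and 71 to 6117 nt in Pcdhb genes. Among other members that rose, Pcdh1 had 555 nt, Cdh22 651 nt and Pcdh17 5445 nt. The part of this length in the changes was not tested. No member had an exon junction after its stop codon in the transcript that was examined, and 11 of the 92 had an additional transcript annotated as an NMD isoform. Of these 11, only Cdh22, Pcdh15 and Pcdhgc3 were tested, and all 3 rose. Among all 3578 tested protein-coding genes with such an isoform, 23.1% rose and 29.3% fell. Being a single exon, the 22 Pcdhb genes have no exon junction in the mature mRNA. Among the 282 tested single-exon protein-coding genes that are not members, 28.0% rose and 6.74% fell, beside 38.1% and 0.0% of the 21 tested Pcdhb genes. The 7-mer GATAATT, which pairs with the antisense seed, was in the annotated 3′ UTR of 7.58% of tested protein-coding genes. Among members with a read it was found in Cdh1, Cdh6, Pcdh10, Pcdhb6, Pcdhb19 and Pcdhb21. In Cdh2 it was not found in the transcript that was examined, and other Cdh2 transcripts were not searched. The 7-mer AACCTTG, which pairs with the sense seed, was in 9.80% of tested protein-coding genes. Among members with a read it was found in Cdh4 and Pcdhb21. A part of either seed in the changes was not tested.

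The proteins that cadherins bind and depend on were examined through 5 lists, chosen for function. Together they held 88 genes, of which 72 were tested, 24 rose (33.3%, beside 22.0% of all genes tested) and 20 fell (27.8%, beside 22.9%), and the median log2 fold change was 0.03. In the list of catenins and junction partners, 16 genes were tested, 6 rose (37.5%, beside 22.0%) and 5 fell (31.25%, beside 22.9%). Ctnnb1, which encodes β-catenin and binds the tail of classical cadherins, fell by 0.43 on the log2 scale. Ctnna1, which encodes an α-catenin that links β-catenin to actin, fell by 0.14. The related gene Ctnna2 rose with a log2 fold change of 0.42. Jup, which encodes plakoglobin, a relative of β-catenin, fell by 0.18. The p120-catenin gene Ctnnd1 had a log2 fold change of −0.21 and was not called. Its relatives Arvcf and Pkp4 rose, with log2 fold changes of 0.40 and 0.53. Among the nectins, adhesion molecules of the same junctions, Nectin1 rose with a log2 fold change of 0.73, Nectin2 fell by 0.79, and Nectin3 was not called.

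Of the other genes with cadherin repeats, 13 were tested, 6 rose (46.2%, beside 22.0% of all genes tested) and 1 fell (7.69%, beside 22.9%), with a median log2 fold change of 0.47. Dchs1, a giant cadherin of planar polarity, rose with a log2 fold change of 0.82. Celsr2 and Celsr3, seven-pass cadherins that act in axon guidance, rose by log2 fold changes of 0.60 and 0.47. Fat1 (0.59), the calsyntenin Clstn1 (0.51) and the receptor tyrosine kinase Ret (0.62) also rose. Fat2 fell by 1.66 on the log2 scale, from a siCtl mean of 53.1 normalised counts.

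**Figure D5:**
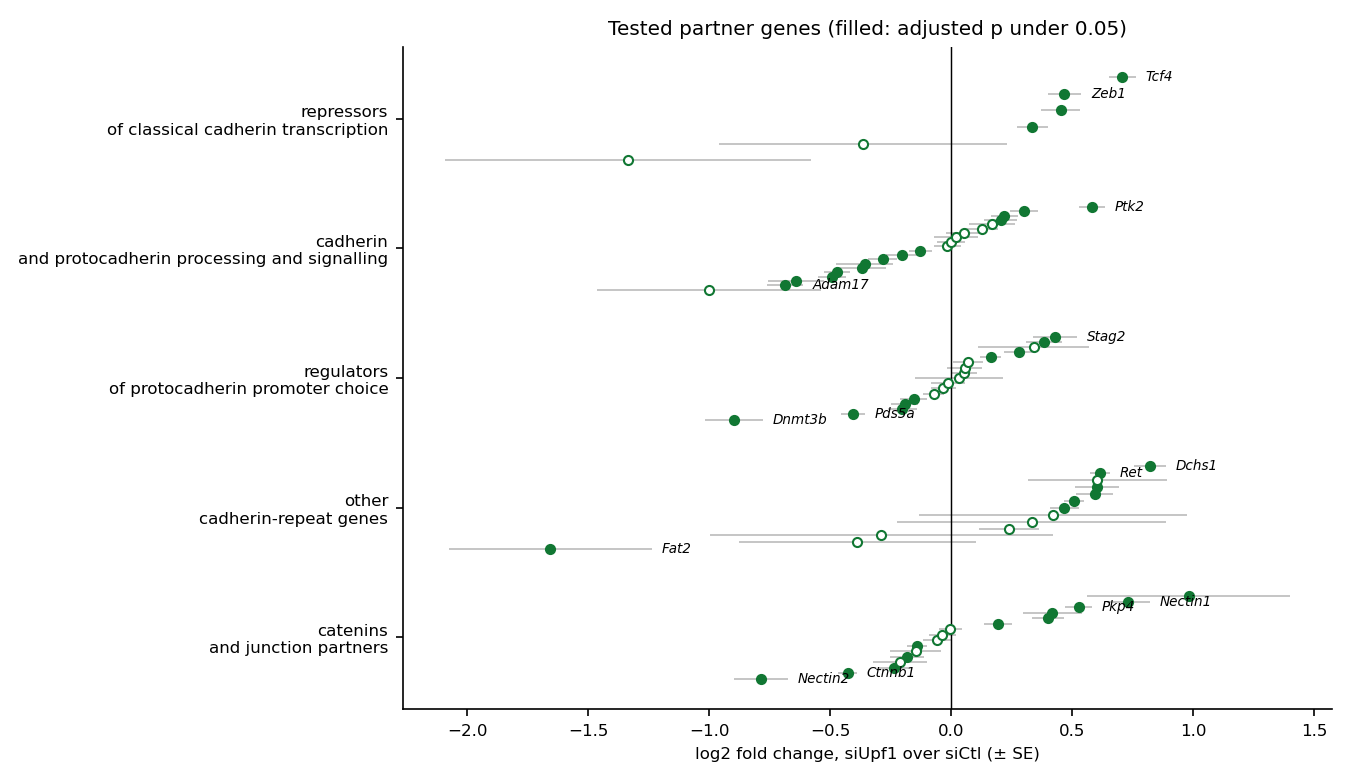
Log2 fold change of siUpf1 over siCtl with its SE for the 72 tested genes of the 5 partner lists, with filled points for adjusted p under 0.05 (DESeq2). Genes of the cadherin-repeat list lie mostly above 0, and the other lists of over 10 tested genes spread to both sides.

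The regulators of protocadherin promoter choice were split, with 4 higher and 5 lower of 17 tested. These are 23.5% and 29.4%, near the 22.0% and 22.9% of all genes tested. Dnmt3b, which encodes the DNA methyltransferase that methylates clustered protocadherin promoters, fell by 0.90 on the log2 scale, and Dnmt3a fell by 0.20, whereas the maintenance methyltransferase gene Dnmt1 rose with a log2 fold change of 0.16 (adjusted p = 0.000381 by DESeq2). Smchd1, a repressor of the clusters, rose with a log2 fold change of 0.28. Ctcf fell by 0.16, and of the cohesin genes Stag2 rose (0.43) while Rad21, Smc1a and Smc3 were not called. The cohesin release factors Pds5a and Pds5b differed, with a fall of 0.41 and a rise of 0.38 on the log2 scale. Their part in the protocadherin values was not tested.

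In the list of processing and signalling genes, 4 of 20 tested rose (20%, beside 22.0% of all genes tested) and 9 fell (45.0%, beside 22.9%). Adam17, a sheddase, fell by 0.69 on the log2 scale, whereas Adam10, which cleaves N-cadherin and γ-protocadherins, was not called (0.13). Of the γ-secretase genes described here, Psen2 fell by 0.64 and Psenen by 0.36 on the log2 scale, and Ncstn and Aph1a were not called. Ptk2, which encodes the focal adhesion kinase that protocadherin tails inhibit, rose with a log2 fold change of 0.58. Genes of the WAVE complex, which binds the tails of many protocadherins, did not move one way. Wasf2 fell by 0.47 and Cyfip1 by 0.49 on the log2 scale, whereas Wasf1 (0.22), Abi1 (0.20) and Brk1 (0.30) rose. Of the repressors of classical cadherin transcription, 6 were tested. In DESeq2's test 4 rose (66.7%, beside 22.0%) and none fell (beside 22.9%), and 4 had an unadjusted p under 0.05. Those that rose were Tcf4 (0.71), Zeb1 (0.47), Zeb2 (0.45) and Tcf3 (0.33). Snai1 and Snai2 had at most 17.2 normalised counts on average in a group.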

How the data were processed

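Polyadenylated RNA from N2A cells was made into 5 stranded libraries. The deposited values were raw counts. The authors trimmed reads with fastp, mapped them to GRCm38.p6 with STAR (2.7.0f, per the submitters' processing notes) and counted reads on the reverse strand over exons with featureCounts (Subread 1.6.4). Counts of 20402205 to 27717594 reads per library set the precision, but such counts do not show PCR duplicates.

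DESeq2 1.42.0 in R 4.3.3 tested siUpf1 against siCtl on all genes and all 5 libraries (Wald test, median-of-ratios size factors, independent filtering, Benjamini-Hochberg adjustment, threshold 0.05). Gene models came from GENCODE M21 on GRCm38, which held all 92 members, and promoters from RefSeq. Members and lists were chosen with earlier results of these data known. Values per library are given in each family for the 8 called members with the largest change among those averaging 50 or more normalised counts, and for the 3 with the highest mean. Any other member given by library was chosen after its values were seen. Alternatives were edgeR 4.0.16, TMM or total-count size factors, a minimum of 10 counts in 2 libraries, no independent filtering, the replicate number as a block, shrunken fold changes, and leaving out each library. Scripts were tested on simulated data. Values of some single genes of the lists are not reported here.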

Additional observations from a re-analysis of the deposited data

How the results depend on the processing

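The 7 members Cdh2, Cdh22, Pcdh1, Pcdh17, Pcdhac2, Pcdhb11 and Pcdhgc3, and Upf1, stayed past the threshold in all 11 alternative fits. Over all single-gene values and alternatives, 230 kept direction and side of the threshold, 61 lost the call, none gained it, and 4 changed sign, all of Cdh24 (−0.0081 with TMM size factors, −0.032 with the replicate block, and −0.081 to 0.080 with a library left out, negative without siCtl replicate 3 or siUpf1 replicate 2, none past the threshold). A further 17 were not tested under the alternative. This tally covers the 24 called members and Cdh24 and Pcdh12, so only Cdh24 and Pcdh12 could have gained a call. The shrunken fold changes kept the adjusted p of the main fit, so no call could be lost with them. Of the cadherins, 1 rather than 2 was called higher without independent filtering, with the replicate block and without any one siUpf1 library. In the other direction, 3 were called higher by edgeR, with total-count size factors and with the minimum of 10 counts in 2 libraries. Of the clustered protocadherins, 31 rather than 18 were called higher by edgeR, and 5 to 14 when a library was left out, when 34 to 40 rather than 42 were tested. The summed count of each cluster kept its direction with TMM or total-count size factors and with any library left out. It was not computed under the other alternatives.

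Same-numbered siCtl and siUpf1 libraries did not deviate together (correlations −0.09 and −0.07). With 2 siCtl libraries these values are not independent, so they cannot show whether the replicate numbers pair the libraries. With the replicate number as a block, which leaves few degrees of freedom, DESeq2 called 1957 genes higher and 1962 lower, 4 clustered protocadherins higher of 28 tested, 2 non-clustered protocadherins higher, and 9 genes of the partner lists lower in place of 20. Leaving out a library gave 12 to 19 lower genes in these lists, for which all alternatives were added after the data were seen. Leaving out a siCtl library leaves 1 control, which is assumed to vary like the siUpf1 libraries. With 2 controls and many members under 100 counts, small changes were not detectable.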
